A study of Saccharomyces cerevisiae with 7 samples.

Results

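The Hsp70 nucleotide exchange factor genes of the budding yeast cytosol are FES1, SSE1, SSE2 and SNL1. They were chosen by name from what their products do, but with earlier results of these data known. Each matched 1 row of the deposited nascent RNA table, so that 4 of its 5732 genes are described here. The table covers 4 conditions of Saccharomyces cerevisiae strain DPY1283, at 30 °C or at 39 °C (heat shock), each without rapamycin or with 1 µM rapamycin, and the labels give 1 sample per condition. All 4 cultures carry the genotype Hsf1-AA, Rpb3-FLAG. In an anchor-away (AA) strain rapamycin tethers the tagged protein, here the heat shock transcription factor Hsf1, to an anchor protein outside the nucleus. Rpb3 belongs to RNA polymerase II, and its FLAG tag allows the polymerase to be isolated together with the RNA it is making. Every rapamycin culture is of the anchor-away strain, so the loss of nuclear Hsf1 and other effects of the drug cannot be told apart. For these cultures the labels state neither the time at 39 °C nor the time in rapamycin. The series also holds 3 chromatin immunoprecipitation samples of Hsf1 in strain BY4741, which were not analysed here.

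Hsp70 chaperones hold unfolded protein segments while ADP is bound and let them go when ADP is exchanged for ATP. J proteins speed ATP hydrolysis and thereby capture of the client, and nucleotide exchange factors speed the release of ADP and thereby of the client. Fes1 is the armadillo-repeat exchange factor of the cytosol, related to human HspBP1, and is needed for the removal of misfolded proteins by the ubiquitin system. Sse1 and Sse2 are the Hsp110 proteins of yeast, large relatives of Hsp70 that act as exchange factors and support Hsp104 in pulling aggregates apart. Snl1 has a BAG domain and is anchored in the membrane of the endoplasmic reticulum and nuclear envelope, facing the cytosol. SSE1 and SSE2 are a paralog pair, and the labels do not state how reads that match more than 1 gene were counted, so the split of such reads between them is uncertain.

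The values, normalized read counts that the authors averaged within a condition, are not divided by gene length. Replicate values were not used here, and all differences below stand without a test or a check against replicate spread. The spacing of the lowest values was used to estimate what 1 read is worth, which gave a pair of libraries per column of 205000 to 794000 reads each. Counting errors follow from it, cover counting only, and treat reads as independent molecules, which reads without molecular identifiers are not. A log2 ratio was taken after adding 2.851 to each value, and a gene is called higher or lower at a ratio of at least 1 or at most -1, which is 2-fold. Changes of weakly transcribed genes come out smaller on this scale than they are. Of all genes 4585 passed a filter on low values, and all 4 exchange factor genes were among them. HSF1, the gene of the anchored protein, had 78.7 normalized reads in untreated cells and 60.3 with the drug at 30 °C, against 113 and 99.98 during heat shock. Its read count does not check where the protein is.

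FES1 (YBR101C, chromosome II, 443821 to 444693 on the S288C assembly R64) was higher during heat shock without rapamycin, and below its unheated level when rapamycin was present. It had 65.0 normalized reads at 30 °C, 28.4 at 30 °C with rapamycin, 778 at 39 °C and 17.4 at 39 °C with rapamycin. The untreated heat shock value stands apart from the other 3, and the value at 39 °C with rapamycin is the lowest. The heat shock log2 ratio without rapamycin was 3.53 with a counting standard error of 0.11. With rapamycin the heat shock ratio was -0.63, and its 95% counting interval, -1.24 to -0.01, only just leaves out 0. The rapamycin ratio was -1.12 at 30 °C, with a counting standard error of 0.19, and -5.27 at 39 °C, with a counting standard error of 0.27. The latter was at rank 3 from the lowest of all kept genes. Its 95% counting interval, -5.80 to -4.74, also holds the ratios of the genes STI1 at -4.92 and HSP82 at -4.88. About 22 reads stand behind the lowest value and about 1647 behind the highest. With heat and rapamycin together FES1 was 3.74-fold below its untreated level as a plain ratio, a log2 ratio of -1.75.

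SSE1 (YPL106C, chromosome XVI, 350194 to 352275), the main Hsp110 gene, was higher during heat shock and stayed near its level without heat when rapamycin was present. It had 432 normalized reads at 30 °C, 265 at 30 °C with rapamycin, 2414 at 39 °C and 234 at 39 °C with rapamycin. Again only the untreated heat shock value is high, and the values with rapamycin at the 2 temperatures lie close together. The heat shock ratio was 2.48 with a counting standard error of 0.05. In the presence of rapamycin it was -0.18, with a counting interval of -0.38 to 0.02 that holds 0. Rapamycin gave a ratio of -0.70 at 30 °C, which misses the 2-fold rule but is larger than its counting standard error of 0.07. At 39 °C the rapamycin ratio was -3.35, with a counting standard error of 0.09. SSE1 rests on the most reads of the 4 genes, about 297 even at its lowest value.

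SSE2 (YBR169C, chromosome II, 573915 to 575996) encodes the second Hsp110 and was the only member that stayed higher at 39 °C with rapamycin. It had 17.1 normalized reads at 30 °C, 10.9 at 30 °C with rapamycin, 548 at 39 °C and 102 at 39 °C with rapamycin. The 2 heat shock values are both above the 2 values at 30 °C, with the untreated heat shock value the higher. Its heat shock ratio was 4.79 (counting standard error 0.19), at rank 21 from the highest of all kept genes. With rapamycin the heat shock ratio was 2.94, with a counting standard error of 0.26. The heat shock difference in normalized reads with rapamycin was 17.2% of that without it, against -1.55% for FES1 and -1.57% for SSE1. At 39 °C the rapamycin ratio was -2.39, with a counting standard error of 0.13. At 30 °C it was -0.54, with a counting interval of -1.11 to 0.04, on about 53 reads without and 26 reads with rapamycin.

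SNL1 (YIL016W, chromosome IX, 321454 to 321933) was lower during heat shock. It had 26.6 normalized reads at 30 °C, 21.0 at 30 °C with rapamycin, 9.34 at 39 °C and 15.3 at 39 °C with rapamycin. The untreated heat shock value is the lowest of the 4, the opposite of its place in the other members. The heat shock ratio was -1.27 with a counting standard error of 0.30, and it became -0.79 with a pseudocount of 0.5 of the median value, short of the 2-fold rule. The rapamycin ratios were -0.30 at 30 °C and 0.58 at 39 °C, and the heat shock ratio with rapamycin was -0.39. The counting intervals of these 3 ratios hold 0. The 39 °C values rest on about 20 and 19 reads, and the counting interval of the rapamycin ratio at 39 °C runs from -0.17 to 1.32.

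**Figure D1:**
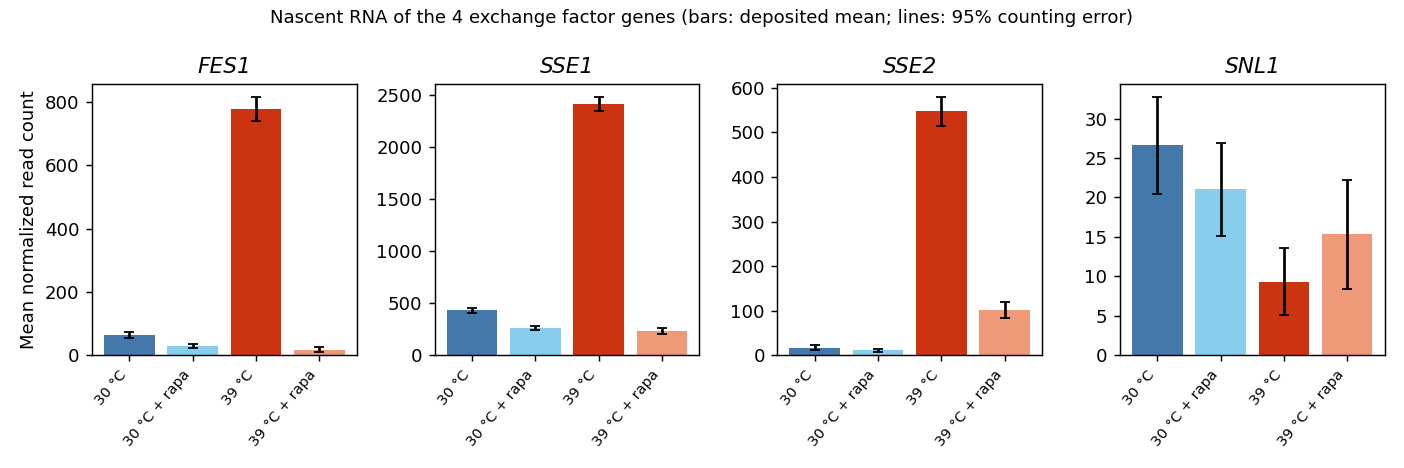
Mean normalized read count (linear axis from 0, a separate scale for each gene) of FES1, SSE1, SSE2 and SNL1 in the 4 conditions; bars are the deposited means and lines are 1.96 counting errors, with no replicate spread. The untreated 39 °C bar is the tallest for FES1 (778), SSE1 (2414) and SSE2 (548) and the shortest for SNL1 (9.34).

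Set against all kept genes, 3 of the 4 members were at least 2-fold higher in heat shock without rapamycin, where 16.1% of kept genes were. SNL1 alone was lower, where 17.9% of kept genes were lower. The median log2 ratio over all kept genes was 0.01. With all columns rescaled to the same total the split of all kept genes moved from 740 higher and 820 lower to 595 higher and 1014 lower, since the median gene then lay at -0.17. The members' heat shock ratios followed the order SSE2, FES1, SSE1 and SNL1, and each neighbouring pair differed by more than its counting interval. FES1 was above SSE1 by 1.05 on the log2 scale, with an interval of 0.81 to 1.29. SSE2 was above FES1 by 1.26, with a counting standard error of 0.22.

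Rapamycin at 30 °C left FES1 as the only member past 2-fold, lower, as were 0.371% of kept genes, and no member was higher, as were 0.0436%. With a pseudocount of 0.5 of the median value its ratio was -0.89 and it was not past 2-fold. All 4 ratios were below 0 while the median of all kept genes was 0.00, and 97.0% of kept genes lay within 1.5-fold. The 95% counting intervals of SSE2, -1.11 to 0.04, and of SNL1, -0.77 to 0.16, hold 0. The order from the lowest was FES1, SSE1, SSE2 and SNL1. SSE1 and SSE2 differed by 0.16, with an interval of -0.75 to 0.43 for SSE1 minus SSE2, and SSE2 and SNL1 differed by 0.23, with an interval of -0.97 to 0.51. Neither of those neighbouring pairs differed beyond counting error.

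During heat shock rapamycin left FES1, SSE1 and SSE2 at least 2-fold lower, where 2.88% of kept genes were. No member was higher, where 5.37% of kept genes were. After rescaling to equal totals the 246 higher and 132 lower kept genes became 334 and 103. The 3 lower members kept the order FES1, SSE1 and SSE2, with FES1 below SSE1 by 1.92 (interval of FES1 minus SSE1 -2.48 to -1.36) and SSE1 below SSE2 by 0.96 (interval of SSE1 minus SSE2 -1.27 to -0.65). The rapamycin ratio at 39 °C minus that at 30 °C was -4.15 for FES1, -2.65 for SSE1 and -1.85 for SSE2, with counting standard errors of 0.33, 0.11 and 0.32. For SNL1 this difference was 0.88 with a counting standard error of 0.45. A difference of -1 or less, which 3 members had, was found in 3.75% of kept genes, and one of at least 1, which no member had, in 6.91%.

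Heat shock in the presence of rapamycin left SSE2 as the only member past 2-fold, higher, as were 12.3% of kept genes, and no member was lower, as were 12.8%. FES1, SSE1 and SNL1 had ratios of -0.63, -0.18 and -0.39, and no pair of these 3 differed beyond counting error. SSE2 was above SSE1 by 3.12, with a counting standard error of 0.28. Against untreated 30 °C cells, heat shock with rapamycin left SSE2 higher at 2.40 and FES1 lower at -1.75, with 13.3% of kept genes higher and 13.4% lower, while SSE1 at -0.88 and SNL1 at -0.70 were within 2-fold. The comparisons share condition columns with one another, so that a chance error in 1 column enters more than 1 ratio.

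**Figure D2:**
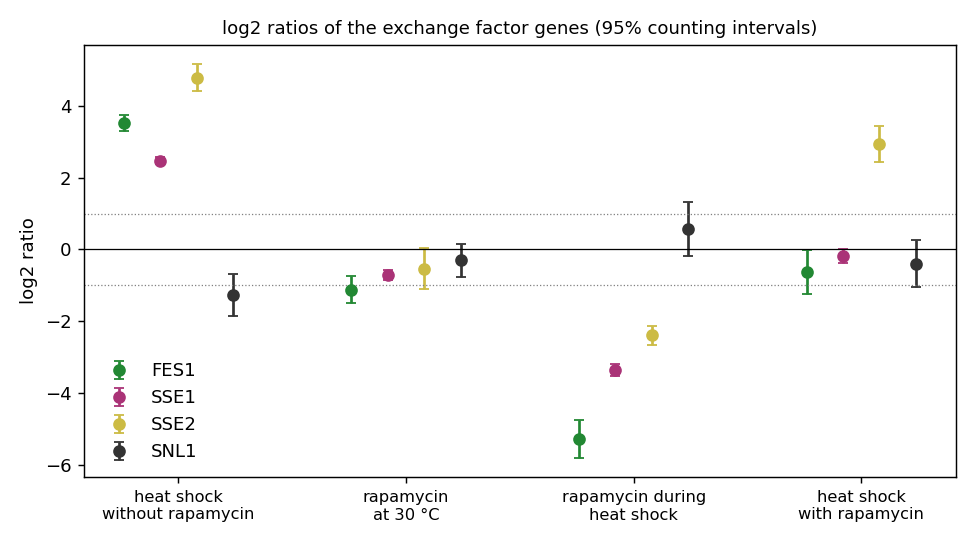
The log2 ratio (after adding 2.851) of each exchange factor gene in the 4 comparisons; points are single ratios, vertical lines are 95% counting intervals, and dotted lines mark 2-fold. With rapamycin during heat shock the points run from -5.27 (FES1) over -3.35 (SSE1) and -2.39 (SSE2) to 0.58 (SNL1), and only SSE2 is past 2-fold in heat shock with rapamycin.

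Levels were compared between the members per kilobase of annotated gene, since longer genes collect more reads. At 30 °C SSE1 had 207 normalized reads per kilobase, FES1 74.4, SNL1 55.4 and SSE2 8.20. At 39 °C the order was SSE1 with 1160, FES1 with 891, SSE2 with 263 and SNL1 with 19.4. SSE1 thus led at both temperatures, and SSE2 went from below SNL1 to above it. At 30 °C with rapamycin the order was SSE1 with 127, SNL1 with 43.8, FES1 with 32.5 and SSE2 with 5.22. At 39 °C with rapamycin it was SSE1 with 112, SSE2 with 49.2, SNL1 with 31.9 and FES1 with 19.9, so FES1 moved from the second place to the last at this temperature. Neighbours that did not differ beyond 1.96 counting errors were SNL1 and FES1 in each of the rapamycin conditions. SNL1 and SSE2 at 39 °C with rapamycin differed by 17.2 normalized reads per kilobase, with a counting error of 8.57.

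The make-up of the summed exchange factor level per kilobase shifted between conditions. SSE1 made up 60.03% of the sum at 30 °C, 61.0% with rapamycin, 49.7% at 39 °C and 52.7% at 39 °C with rapamycin. FES1 made up 21.5%, 15.6%, 38.2% and 9.33% in the same order. SSE2 made up 2.37%, 2.50%, 11.3% and 23.0%, and SNL1 16.1%, 21.0%, 0.833% and 15.0%. FES1 therefore had its largest share at 39 °C and its smallest at 39 °C with rapamycin, while SSE2 had its largest share in the latter. SSE1 and SSE2 have the same annotated length, 2082 bases, so their values were compared without dividing by length. The uncertain split of reads that match both genes, stated above, applies to this comparison too. SSE2 was at 3.95% of SSE1 at 30 °C, 4.10% with rapamycin, 22.7% at 39 °C and 43.8% at 39 °C with rapamycin, with counting errors of 0.596, 0.835, 0.764 and 4.68 percentage points.

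Exchange factors act on Hsp70, so their summed level was set against that of the cytosolic Hsp70 genes SSA1 to SSA4, a measure chosen after the values were seen. The summed exchange factor level per kilobase was 345 at 30 °C, 209 with rapamycin, 2334 at 39 °C and 213 at 39 °C with rapamycin. The summed SSA level per kilobase was 319, 53.6, 4123 and 160 in the same order. The ratio of exchange factor to SSA level was 1.08 at 30 °C, 3.89 with rapamycin, 0.566 at 39 °C and 1.34 at 39 °C with rapamycin, with counting errors of 0.0428, 0.304, 0.00850 and 0.1004. It was thus highest with rapamycin at 30 °C, where the SSA sum was 5.94-fold lower and the exchange factor sum 1.65-fold lower than without it. In heat shock without rapamycin the SSA sum was 12.9-fold higher and the exchange factor sum 6.76-fold higher. With the ribosome-associated Hsp70 genes SSB1 and SSB2 added below the line, the ratios were 0.308, 0.259, 0.542 and 0.341. The untreated heat shock value was then the highest instead of the lowest. The value with rapamycin at 30 °C was then the lowest instead of the highest. These are nascent RNA levels and not protein amounts. SSA1 and SSA2, SSA3 and SSA4, and SSB1 and SSB2 are similar copies. How reads common to such copies were counted is not stated in the labels, so the sums and the ratios built on them are uncertain as well if these reads were dropped or counted more than once.

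**Figure D3:**
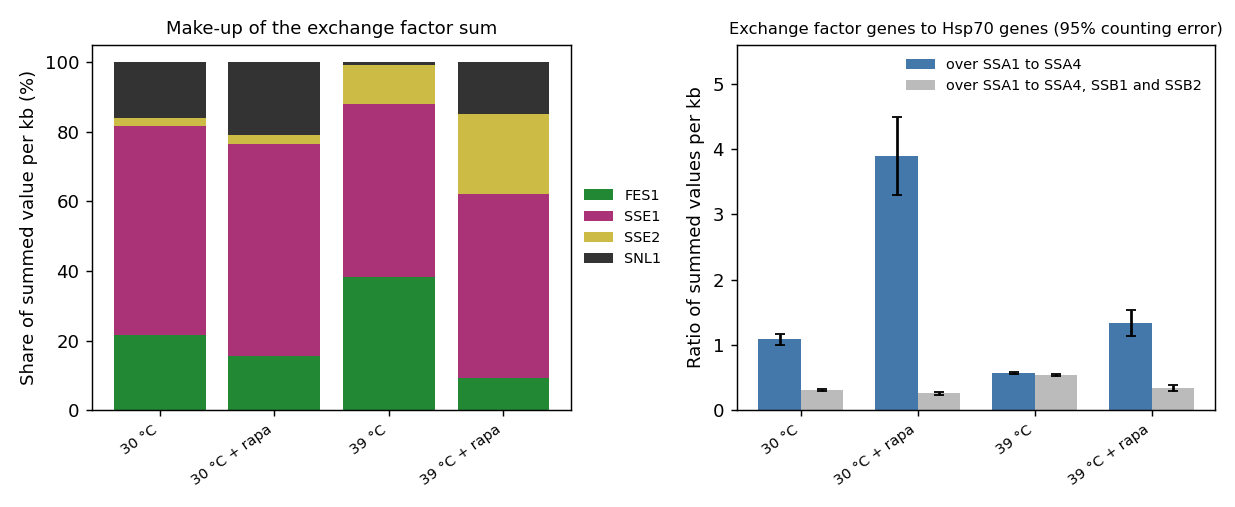
Left, share of each member in the summed value per kilobase (stacked bars, percent); right, ratio of the summed exchange factor value per kilobase to that of SSA1 to SSA4 (blue) or of these with SSB1 and SSB2 (grey), with 1.96 counting errors. FES1 goes from 38.2% at 39 °C to 9.33% with rapamycin, and the blue ratio runs from 0.566 to 3.89.

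The other genes of the Hsp70 cycle were read from lists chosen with earlier results of these data known. Beside the list counts below, 16.1% of kept genes were at least 2-fold higher and 17.9% lower in heat shock. With rapamycin at 30 °C 0.0436% were higher and 0.371% lower, and with rapamycin during heat shock 5.37% and 2.88%. In heat shock with rapamycin 12.3% were higher and 12.8% lower. Of the 7 cytosolic Hsp70 genes, 4 were at least 2-fold higher and 2 lower in heat shock. The higher ones were SSA4 at 6.85, SSA3 at 4.78, SSA1 at 4.09 and SSA2 at 2.12, and the lower ones were SSB1 at -2.24 and SSB2 at -2.03. SSZ1, the ribosome-bound Hsp70 partner of the J protein Zuo1, was at -0.27. With rapamycin at 30 °C SSA2 at -3.37 and SSA1 at -2.31 were lower, SSB1 and SSB2 were at -0.09, SSZ1 at -0.04, SSA4 at -0.16 and SSA3 at 0.28. With rapamycin during heat shock the 4 SSA genes were lower, from -3.77 to -5.99, the range within which FES1 lies. SSB1 at 1.26 and SSB2 at 1.48 were higher, and SSZ1 was at 0.25. With rapamycin present, heat shock left SSA1 at 2.63, SSA2 at 1.09, SSA4 at 1.02, SSA3 at 0.50, SSZ1 at 0.01, SSB2 at -0.45 and SSB1 at -0.89.

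Of the 11 measured cytosolic J protein genes, 5 were at least 2-fold higher and 1 lower in heat shock, with a median of 0.55. Of all kept genes 16.1% were higher and 17.9% lower there. SIS1 at 3.59, APJ1 at 3.48 and YDJ1 at 1.86 were highest, and JJJ1 at -1.498, DJP1 at -0.50 and ZUO1 at -0.50 lowest. With rapamycin at 30 °C SIS1 at -1.91 and YDJ1 at -1.16 were lower, and APJ1 at -0.64 did not reach 2-fold, while JJJ1 at 0.24, XDJ1 at 0.16 and SWA2 at 0.03 were the highest. During heat shock 4 of the 11 were lower with rapamycin, YDJ1 at -4.09, APJ1 at -3.99, SIS1 at -3.81 and the membrane-bound HLJ1 at -2.03. JJJ2 at 0.36, DJP1 at 0.23 and JJJ1 at 0.20 were the highest and stayed within 2-fold. No J protein gene was at least 2-fold higher with rapamycin at either temperature. In heat shock with rapamycin SIS1 at 1.70 and SWA2 at 1.31 were higher, ahead of CAJ1 at 0.82, and JJJ1 at -1.54 and YDJ1 at -1.07 were lower, with HLJ1 next at -0.39. These 2 higher and 2 lower of 11 lie near the shares of all kept genes, 12.3% and 12.8%. With a pseudocount of 0.5 of the median value 0 J protein genes were past 2-fold lower in heat shock, without or with rapamycin.

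The exchange factors of other compartments were lower in none of the rapamycin comparisons. MGE1, the exchange factor of mitochondrial Hsp70, had 44.3 normalized reads at 30 °C, 60.4 with rapamycin, 18.4 at 39 °C and 42.5 at 39 °C with rapamycin. Its heat shock ratio was -1.15 and its rapamycin ratio at 39 °C was 1.09, so it was lowest in untreated heat shock, as SNL1 was. SIL1, an exchange factor for the Hsp70 of the endoplasmic reticulum, had 23.6, 26.6, 55.9 and 97.1 in the same order, with a heat shock ratio of 1.15 and a rapamycin ratio at 39 °C of 0.77. LHS1, the Hsp70 relative that acts as exchange factor in that compartment, had 34.9, 37.7, 67.8 and 72.9, with ratios of 0.90 and 0.10. With rapamycin at 30 °C the 3 genes were at 0.43, 0.15 and 0.10, and with heat shock in rapamycin at -0.48, 1.76 and 0.90.

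Genes of Hsf1 and of the general stress factors Msn2 and Msn4 give a frame for these values, though the lists rest on prior knowledge of such dependence and are not independent of it. All 20 listed Hsf1 chaperone genes other than FES1 were at least 2-fold higher in heat shock (median 3.54), where 16.1% of kept genes were. All 20 were lower with rapamycin during heat shock (median -3.79, from -7.17 for BTN2 to -1.89 for MBF1), where 2.88% of kept genes were. With rapamycin at 30 °C 14 of the 20 were lower (median -1.21), where 0.371% of kept genes were. Beside 12.3% higher and 12.8% lower of kept genes, 10 of the 20 were higher and 1 lower in heat shock with rapamycin (median 0.97). The widest of these were HSP42 at 4.64 and YDJ1 at -1.07. All 24 measured Msn2/4 genes were at least 2-fold higher in heat shock without rapamycin (median 4.46) and with it (median 3.85), where 16.1% and 12.3% of kept genes were. Of the 24, 2 were lower with rapamycin during heat shock, GRE3 at -1.85 and SPI1 at -1.06, where 2.88% of kept genes were. The median of the 24 was 0.03 there. With equal totals 1 was lower and the median was 0.155. At 30 °C none of the 24 passed 2-fold with rapamycin (median 0.25), where 0.0436% of kept genes were higher and 0.371% lower. The SSE2 ratio with rapamycin during heat shock, -2.39, lay below every one of these 24 and within the range of the Hsf1 genes. Its heat shock ratio with rapamycin, 2.94, lay within the ranges of both lists, since HSP12 at 6.60 and PNC1 at 1.56 bounded the Msn2/4 list. The Hsp90, Hsp104 and small heat shock protein genes, which work with Hsp70 on clients, were all 6 higher in heat shock, from HSC82 at 2.47 to HSP26 at 7.29, and all 6 lower with rapamycin during heat shock, from STI1 at -4.92 to HSP104 at -2.93. The lists overlap. HSP82, HSC82, STI1, HSP104 and HSP42 are also among the 20 Hsf1 genes, so only HSP26 is added here. The 20 Hsf1 genes also include SSA1 and SSA2 of the Hsp70 list and SIS1, YDJ1 and APJ1 of the J protein list. The HSP26 ratio rests on a low value at 30 °C, 2.68 normalized reads. With rapamycin at 30 °C 4 of the 6 were lower (median -1.49), and in heat shock with rapamycin 5 of the 6 were higher (median 3.44). The 5 reference genes stayed within 2-fold in the 4 comparisons, with ACT1 at 0.56 in heat shock and TAF10 at -0.89, but 1 was past 2-fold lower in heat shock with the pseudocount of 0.01 of the median or with equal totals.

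**Figure D4:**
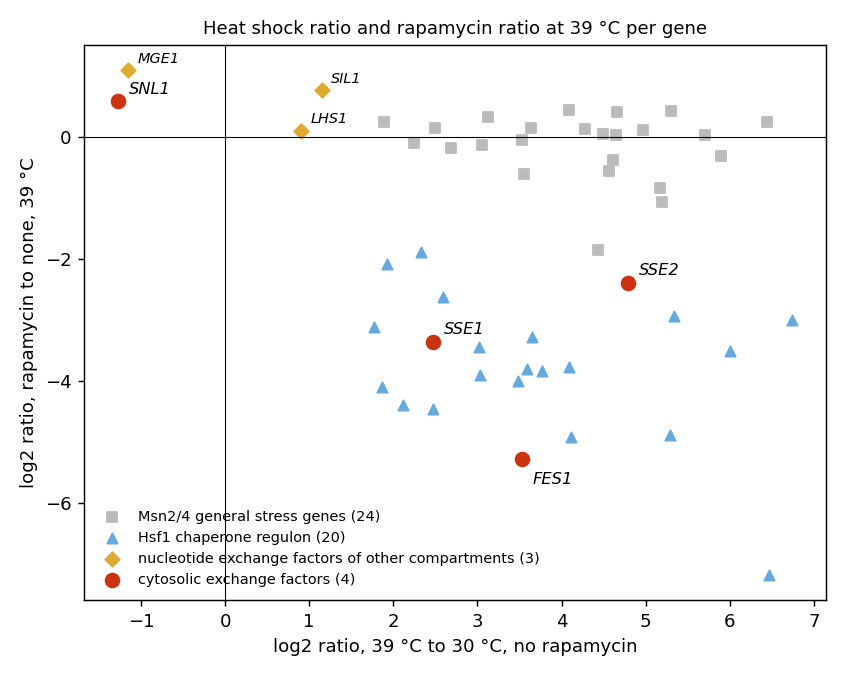
Per gene, the heat shock log2 ratio without rapamycin (x axis) against the log2 ratio of rapamycin to none at 39 °C (y axis); red circles are the exchange factor genes, blue triangles the 20 Hsf1 chaperone genes, grey squares the 24 Msn2/4 genes and yellow diamonds MGE1, SIL1 and LHS1. The axes share the untreated 39 °C column. FES1, SSE1 and SSE2 lie below -2 on the y axis, within the range of the Hsf1 genes (-7.17 to -1.89), and SNL1 lies beside MGE1 at the upper left.

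The members differ in where they sit. FES1, SSE1 and SSE2 each lie downstream of a gene on the same strand and face a convergent gene at their other end. SNL1 shares its upstream region of 488 bases with VID28 (YIL017C), a subunit gene of the GID ubiquitin ligase, which is transcribed away from it. VID28 was higher in heat shock, with 10.9 normalized reads at 30 °C and 57.7 at 39 °C, a ratio of 2.14, while SNL1 was lower. With rapamycin VID28 had 17.2 at 30 °C and 47.8 at 39 °C. BAR1, downstream of SNL1, was below the filter, with values from 5.16 to 11.1.

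Around FES1 both neighbours were lower, as FES1 was, with rapamycin during heat shock. MMS4, convergent with FES1 at a distance of 230 bases, had 15.0 normalized reads at 30 °C and 11.0 with rapamycin, against 38.0 at 39 °C and 10.5 with rapamycin. Its heat shock ratio was 1.19 and its rapamycin ratio at 39 °C -1.62, with a counting standard error of 0.35. EXO84, which ends 368 bases upstream of FES1, had 75.4 and 34.3 at 39 °C, a rapamycin ratio of -1.07. SYH1, 587 bases upstream of SSE1, had 140 and 59.3 at 39 °C, a ratio of -1.20, while DPC25, convergent with SSE1, had 7.81 and 19.9, a ratio of 1.10. Beside SSE2, NPL4 upstream was at -0.51 and PEX32 downstream, under the filter, at 0.11. Of the 8 neighbours 3 were thus lower and 1 higher with rapamycin during heat shock, beside 2.88% lower and 5.37% higher of all kept genes. PEX32 and BAR1 are not among the kept genes. The labels do not state whether reads were counted by strand, and the part of reads from FES1 or SSE1 in the neighbours' values was not tested.

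The genes most like each member were taken as the 3 kept genes with the smallest Euclidean distance over the 3 log2 ratios to untreated 30 °C, a description over 4 conditions. For FES1 they were ZPR1 at a distance of 0.87, AHA1 at 1.07 and YLR217W at 1.15. For SSE1 they were TAH11 at 0.31, YAR1 at 0.60 and YGR210C at 0.80. For SSE2 they were GRE3 at 0.50, HSP104 at 0.75 and HSP30 at 0.83. For SNL1 they were ARP1, FUS3 and AAD3, at 0.16 to 0.17, and 254 genes lay within 0.5 of it, against 0 for FES1 and SSE2 and 1 for SSE1. FES1 and SSE1 were 1.43 apart, while SSE1 and its paralog SSE2 were 4.01 apart. None of the 3 nearest genes of any member was among its 3 best by Pearson correlation over the 4 values, a measure that ignores the size of the response. YLR217W has no position in the gene annotation used and is next in locus number to the Hsf1 gene CPR6 (YLR216C). At 39 °C YLR217W had 339 normalized reads without and 12.4 with rapamycin, and CPR6 827 and 55.2. Whether reads of CPR6 enter the YLR217W values was not tested.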

How the data were processed

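Nascent RNA bound to FLAG-tagged polymerase was measured in 4 conditions. Per the file headers, the deposited signal values are normalized read counts averaged within a condition. Counting with HTSeq and genome build sacCer3 are named per the submitters' processing notes. Scaling, aligner, annotation and strand setting were not given in the sources used here. Columns were matched to conditions by header abbreviations.

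Low values (under 6) of each column were sums of 2 whole multiples, 1 of each of 2 steps, within 0.0055, for 100% of distinct values against 5.38% to 27.0% of evenly spaced ones, a baseline that is too low because the steps were not refitted to those. Each column was therefore read as the mean of 2 libraries, and the counting error at the median gene was 11.3% to 17.1% of its value. The step fit and the ratios were tested on data simulated with these fitted steps, where the largest error of a refitted step was 0.4%. Since the simulated columns were built from 2 libraries, they cannot check that reading of the columns. Analysis used Python 3.11.15, numpy 2.4.6 and pandas 2.3.3.

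Log2 ratios used a pseudocount of 0.1 of the median value (2.851). Genes with a mean over the columns at or above the 20th percentile (14.442) were kept, 4585 of 5732. Gene positions and lengths come from the RefSeq table of assembly R64, the assembly known as sacCer3, where 5351 of the genes matched. The members and lists were chosen with earlier results of these data known. Named genes are the members, all Hsp70 and other exchange factor genes, the 3 highest and 3 lowest J proteins, the widest members of other lists, the nearest profiles and the adjacent genes; others were named after their values were seen. DDR2 and JJJ3 matched no row. Pseudocounts, scalings and filters were varied.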

Additional observations from a re-analysis of the deposited data

Results flagged for a closer look

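Of the members, 3 had ratios of opposite sign under the same contrast in different conditions, and these differences of sign were not tested. FES1 had a heat shock log2 ratio of 3.53 without rapamycin and of -0.63 with it. SSE1 had 2.48 without rapamycin and -0.18 with it, the latter within counting error of 0. SNL1 had a rapamycin ratio of -0.30 at 30 °C and of 0.58 at 39 °C, each within counting error of 0.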

How the results depend on the processing

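Each member's ratio in the 4 comparisons, and its difference of rapamycin ratios, was recomputed with a pseudocount of 0.5 or 0.01 of the median value, with columns rescaled to equal totals and, for the ratios, with median-of-ratios factors. The sign was kept in 76 of 76 such values and the side of 2-fold in 73. With the pseudocount of 0.5 of the median, 2 values dropped inside 2-fold, SNL1 in heat shock (-0.79) and FES1 with rapamycin at 30 °C (-0.89), and with 0.01 the SNL1 difference of rapamycin ratios rose past 1 (1.04). Values that left their counting interval were SSE2 in heat shock (4.17) and in heat shock with rapamycin (2.21) and FES1 with rapamycin during heat shock (-4.65), with the pseudocount of 0.5, and SSE1 in heat shock (2.28) with equal totals. That pseudocount gave 11 lower and 0 higher kept genes with rapamycin at 30 °C against 17 and 2, 82 lower and 91 higher with rapamycin during heat shock against 132 and 246, and 361 lower in heat shock with rapamycin against 588. The count of 2 higher at 30 °C was 10 with the pseudocount of 0.01, 5 with no filter on low values and 0 when that filter was set at the 40th percentile. In the gene lists, the pseudocount of 0.5 took the J protein genes lower in heat shock from 1 to 0, and with rapamycin from 2 to 0, the Hsp70 genes higher in heat shock with rapamycin from 3 to 1, and the Hsf1 genes lower there from 1 to 0. It also left 0 of the exchange factors of other compartments past 2-fold, higher or lower, in heat shock, and 0 higher with rapamycin during heat shock. Equal totals took those 3 Hsp70 genes to 1, the exchange factor of another compartment higher in heat shock from 1 to 0, the Msn2/4 genes lower with rapamycin during heat shock from 2 to 1 and the reference genes lower in heat shock from 0 to 1. The pseudocount of 0.01 also gave 1 such reference gene, and 1 Msn2/4 gene higher with rapamycin at 30 °C. The coding-length alternative and the promoter search, protein identity and wider promoter window were not run, since no sequence table was used here. Leaving out replicates was not run because the columns are averages. No paired analysis was possible because the columns carry no replicate numbers. Few reads limit SNL1 at 39 °C (about 20 and 19), FES1 at 39 °C with rapamycin (about 22) and SSE2 at 30 °C with rapamycin (about 26).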

Other observations

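The 3 genes nearest to SSE1 in profile each lie head to head with a gene that was at least 2-fold higher in heat shock, as were 16.1% of kept genes. The arrangement was looked up after the values were seen. TAH11 is divergent from SSC1, the mitochondrial Hsp70 gene, which went from 477 to 1968 normalized reads in heat shock (a log2 ratio of 2.04). YAR1 is divergent from the Hsp90 gene HSP82, which had a heat shock ratio of 5.29. YGR210C is divergent from ZPR1, at a distance of 502 bases, and ZPR1 in turn is the gene nearest to FES1. The genes nearest to the other members did not share this arrangement as a group. AHA1, GRE3, HSP104, HSP30, ARP1 and AAD3 have an upstream gene on the same strand, and YLR217W had no annotated position. FUS3 is divergent from PEP1, which had a heat shock ratio of 0.61. SSE1 itself has no divergent neighbour, since SYH1 lies upstream on the same strand. The gene upstream of SNL1, VID28, was higher in heat shock by a ratio of 2.14 while the ratio of SNL1 was -1.27. TAH11, YAR1 and YGR210C were selected for a profile like that of SSE1, so their own heat shock ratios say nothing about divergent genes in general.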
